A study of Mus musculus with 6 samples.

Results

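Neutrophils sorted from the uterus of tumour-prone mice kept in ambient air carried a transcriptome led by inflammatory messages: Il1b, Fth1, Cd14, Dusp1, S100a9 and S100a8 were its 6 most abundant protein-coding genes by mean CPM (a gene's counts scaled to the same library total). The genes described are those of the 3 normoxia libraries, out of 6 libraries in the whole series, and were ordered by their mean CPM over these libraries. The donors were C57BL/6 PRPL mice, a model of uterine tumours in which one progesterone receptor allele carries Cre (Pgrcre/+), so that Cre is made where that gene is active. All libraries share this genotype. The mice were 4 weeks old and breathed ambient O2 throughout. Whole uteri were digested with enzymes, CD45+ Ly6Ghi CD11b+ cells were sorted, and their mRNA was sequenced. No group of mice without the model's alleles and no neutrophils from another organ entered these values, so they describe a level and not a response to the tumour. The labels do not say whether each library came from a separate animal or from pooled animals, and the spread between libraries may in part be technical. Values with an error are means ± SD over n = 3 libraries, and no test was made, since there is 1 group.

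Neutrophils are short-lived phagocytes that leave the bone marrow after division has stopped. The contents of their granules are made in waves during maturation: primary granule enzymes first, secondary and tertiary granule proteins later, and the messages for the early waves are lost before the cell enters the blood. In tissue, engagement of pattern receptors and cytokine receptors switches on cytokine, chemokine and feedback genes within minutes to hours, through NF-kappaB and AP-1 factors.

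The libraries held 38683293 to 44870447 counts, so that 3 counts, the floor used here, corresponded to 0.0669 to 0.0776 CPM. Protein-coding genes took 98.7% to 98.8% of the counts, mitochondrial genes 0.257% to 0.333%, ribosomal protein genes 0.0884% to 0.116% and haemoglobin genes 0.00529% to 0.0708%. Of 21551 protein-coding genes, 11526 exceeded the floor in each library and 8010 did not exceed it in any. By mean CPM, 1110 genes (5.15%) were high (100 CPM or more), 3591 intermediate (10 to under 100), 4238 low (1 to under 10) and 4602 very low (under 1 but above the floor somewhere). These classes, and the order of the most abundant genes, rest on CPM and so on a gene's share of the counts, to which long genes contribute more. Levels per length are in TPM, which divides counts by exon length and gives the protein-coding genes the same total in every library.

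The neutrophil markers were present at very unequal levels. S100a9 and S100a8, the subunits of the alarmin calprotectin, were the highest of all protein-coding genes per exon length. With the median length of coding transcripts in its place, Fth1 came first, ahead of both. In libraries 1, 2 and 3, in this order throughout, S100a9 reached 22020.2, 15693 and 19051 CPM, or 79237 ± 12033 TPM. S100a8 reached 20694, 14734 and 16967 CPM, or 55028 ± 8780.1 TPM. Both were highest in library 1 and lowest in library 2. Il1b reached 35276, 42247 and 42449 CPM, or 45954 ± 5091 TPM, and was lowest in library 1. Cxcr2, the receptor for the neutrophil-attracting CXC chemokines, was nearly level at 2465, 2228 and 2228 CPM, or 1658 ± 93.5 TPM. Csf3r, the G-CSF receptor, reached 2099, 1920.1 and 1587 CPM, or 1135 ± 168 TPM. The marker used to sort the cells was the lowest of the 6. Ly6g reached 139, 56.7 and 73.2 CPM, rank 1210 by mean CPM and rank 456 per length (208 ± 99.4 TPM). Library 1 was the highest for Ly6g, above libraries 2 and 3. All 6 markers exceeded the floor in every library, as did 53.5% of all protein-coding genes. Passing the floor shows only that their messages were present. The other markers of the sort, Ptprc (CD45) and Itgam (CD11b), averaged 565 ± 48.2 CPM and 276 ± 42.2 CPM. Itgam shares 68.3% of its 31-base words with other annotated genes and Csf3r 23.1%, so both levels are uncertain if shared reads were dropped or split. The same holds for H2-D1 (26.9%), Csf2rb2 (30.1%), Ceacam1 (37.6%), Chil3 (41.5%), Hvcn1 (41.5%), Hbb-bs (54.4%) and Ear1 (73.6%), named below.

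Counts were concentrated in few genes. Il1b alone took 4.00% ± 0.408 of a library, the 10 most abundant genes 20.4% ± 0.654, the 50 most abundant 39.8% ± 1.28 and the 100 most abundant 50.6% ± 1.05. The number of genes at 1000 CPM or more was 151. As a share of counts Il1b stood apart: its lowest library, at 35276 CPM, was above the highest library of the next gene, Fth1, at 28455 CPM. Below it the order was loose, and in 17 of 20 neighbouring pairs among the highest genes the ranges over libraries overlapped. Per exon length, S100a9 ranged above S100a8 without overlap and Il1b, at rank 3, overlapped S100a8. The 40 highest genes by CPM and the 40 highest by TPM shared 29 members.

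**Figure D1:**
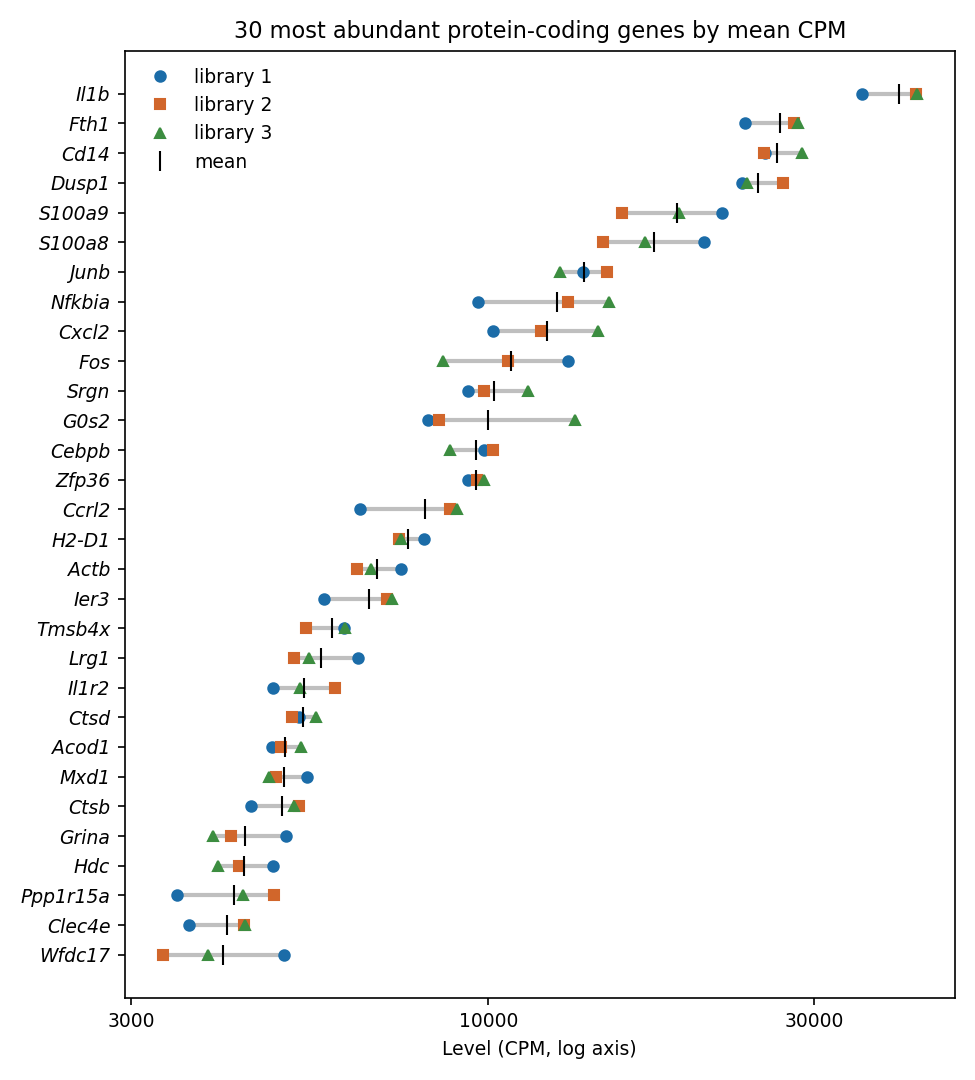
The 30 protein-coding genes with the highest mean CPM, one row a gene, with the level in each of the 3 normoxia libraries as a point, the mean as a tick and the range as a grey bar, on a log axis. Il1b is separate from all other genes, S100a9 and S100a8 are highest in library 1, and Il1b, Nfkbia, Cxcl2, Ccrl2 and Ier3 are lowest in library 1.

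The leading genes fell into a few kinds. Secreted or stored products were Il1b (ENSMUSG00000027398, chr2:129364570-129371139, minus strand), encoding the pyrogenic cytokine interleukin-1 beta, S100a9 (ENSMUSG00000056071, chr3:90692632-90695721, minus strand), S100a8 (ENSMUSG00000056054, chr3:90668978-90670035, plus strand), Cxcl2, a chemokine that draws in further neutrophils through Cxcr2, Srgn, the proteoglycan that packs granule contents, and Lrg1, a secreted leucine-rich glycoprotein. Coordinates here are on GRCm38. Genes on the opposite strand overlap exons of Il1b (Il1bos), Dusp1 (Ergic1), Junb (Prdx2) and Cebpb (Tmem189), and of Arg2 (Vti1b) and Hvcn1 (Tctn1) named below. The overlap covers 1.31% of the exon bases of Il1b, 0.332% in Dusp1, 7.52% in Junb, 20.7% in Cebpb and 28.1% in Arg2. Without a stated strand setting, reads from the overlapping part cannot be told apart. Feedback regulators and immediate early factors were Dusp1, a phosphatase that turns off MAP kinases, Nfkbia, the inhibitor that retains NF-kappaB in the cytoplasm, Zfp36 (tristetraprolin), which binds AU-rich messages and hastens their decay, and the AP-1 subunits Junb and Fos. Surface proteins were Cd14, the lipopolysaccharide co-receptor, Ccrl2, an atypical receptor that binds chemerin, Il1r2, a decoy receptor for interleukin-1, and Hcar2, the niacin receptor. Metabolic genes were Fth1, the ferritin heavy chain that stores iron, Acod1, which makes itaconate, G0s2, an inhibitor of the triglyceride lipase of fat droplets, Hdc, which makes histamine, and the glycolytic enzyme Pkm. Mcl1, the survival factor on which neutrophils depend, and Ppp1r15a, a phosphatase subunit that restores translation after stress, were also among the 40 highest. Of the lists, mature neutrophil proteins gave 9 of the 40 genes, immediate early genes 6 and cytokines and chemokines 3, while granule proteins of any wave and NADPH oxidase subunits gave 0.

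The promoters of 3 of the leading genes are shown: those of Nfkbia and Cxcl2 because they hold a match to the motif of NF-kappaB, and that of Il1b because it is the most abundant gene by CPM and holds a TATA box, a general promoter element. Il1b has neither a kappaB match nor an AP-1 site in this window. Each is the 250 bases before the RefSeq transcription start (GRCm38.p6), 5′ to 3′ on the gene's strand. Capitals mark the TATA box (TATAAA) in Il1b, chr2:129371140-129371389, minus strand, and matches to the kappaB consensus, the binding motif of NF-kappaB, in Nfkbia, chr12:55492648-55492897, minus strand, and Cxcl2, chr5:90903649-90903898, plus strand.
Il1b: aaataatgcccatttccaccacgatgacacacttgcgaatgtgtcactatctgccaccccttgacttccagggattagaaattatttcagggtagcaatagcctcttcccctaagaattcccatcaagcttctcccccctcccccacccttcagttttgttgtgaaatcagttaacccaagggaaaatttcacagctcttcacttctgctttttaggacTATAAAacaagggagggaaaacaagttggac
Nfkbia: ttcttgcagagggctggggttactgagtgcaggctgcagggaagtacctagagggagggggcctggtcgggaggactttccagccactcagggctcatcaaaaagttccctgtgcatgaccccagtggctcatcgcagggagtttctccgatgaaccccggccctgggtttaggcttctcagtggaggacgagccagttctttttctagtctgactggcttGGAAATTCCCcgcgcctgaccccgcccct
Cxcl2: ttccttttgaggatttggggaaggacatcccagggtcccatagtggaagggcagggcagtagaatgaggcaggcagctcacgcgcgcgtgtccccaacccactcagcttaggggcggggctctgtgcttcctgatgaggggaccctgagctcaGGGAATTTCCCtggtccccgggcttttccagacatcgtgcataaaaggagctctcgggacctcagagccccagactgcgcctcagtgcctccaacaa
The TATA box of Il1b begins 31 bases before the start, the kappaB match of Nfkbia 29 bases before it, and Cxcl2 holds overlapping matches that begin 97 and 96 bases before it.

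A kappaB match on either strand lay in this window in 7 of the 33 genes among the 40 highest by CPM that have a promoter in the table (21.2%), against 495 of 9172 genes above the floor (5.40%) and 3.90% of all 32851 promoters. The 7 were Nfkbia, Cxcl2, Fos, Ccrl2, H2-D1, Ier3 and B2m. Among listed genes, 8 of 14 NF-kappaB factors and inhibitors and 8 of 24 cytokines and chemokines held a match, against 1 of 25 mature neutrophil proteins. TATAAA, searched on the gene's strand, lay in 8 of the 33 (24.2%), against 4.90% of genes above the floor and 7.59% of all promoters. The cAMP response element TGACGTCA lay in 3 of the 33 (9.09%, against 3.13% of genes above the floor and 1.55% of all promoters), those of Dusp1, Ppp1r15a and Btg2. The AP-1 site TGANTCA lay in 2 of the 33 (6.06%, against 5.79% and 6.75%). The PU.1 core GAGGAAGT lay in 1 of the 33 (3.03%, against 3.34% and 2.44%), and so did the CArG box (3.03%, against 1.45% and 1.47%). These are letter matches and show neither binding nor use.

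The AU-rich element that tristetraprolin recognises was common in the 3′ UTRs of the listed cytokine, chemokine and immediate early genes. It was rare in those of the mature neutrophil proteins. The searched motif was TATTTAT, written as DNA, in the UTR of the longest coding transcript. It occurred in 25 of 32 cytokine and chemokine genes (78.1%) and 15 of 23 immediate early genes (65.2%), against 28.9% of the genes above the floor and 1 of 30 mature neutrophil proteins (3.33%). UTR length differed too: its median was 153.5 bases in the mature proteins, 687.5 in the cytokines, 1200 in the immediate early genes and 1081 in the genes above the floor. Per kilobase of UTR the motif occurred 2.46 times in the cytokines, 0.73 in the immediate early genes, 0.28 in the background and 0.18 in the mature proteins. Among the 40 most abundant genes 14 held it (35%, near the 28.9% of the background), as did 6 of 17 NF-kappaB genes (35.3%). Of those 40, 7 held 3 or more copies (17.5%, against 3.71% of the background), and Zfp36 itself had 3. Windows of 30 bases show the copies, in capitals, in the UTRs of 2 cytokines and 2 immediate early genes. The first 3 windows hold more than one copy, and that of Fos holds 1.
Il1b: ttaccTATTTATTTATgTATTTATtgattg
Cxcl2: attTATTTATctatgTATTTATTTATTTAT
Ier3: taattaaTATTTATgTATTTATgtatatcc
Fos: atttattaagatggattctcagaTATTTAT
The windows begin 199, 884, 175 and 657 bases after the stop codon, and the whole UTRs hold 3, 7, 4 and 2 copies.

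**Figure D2:**
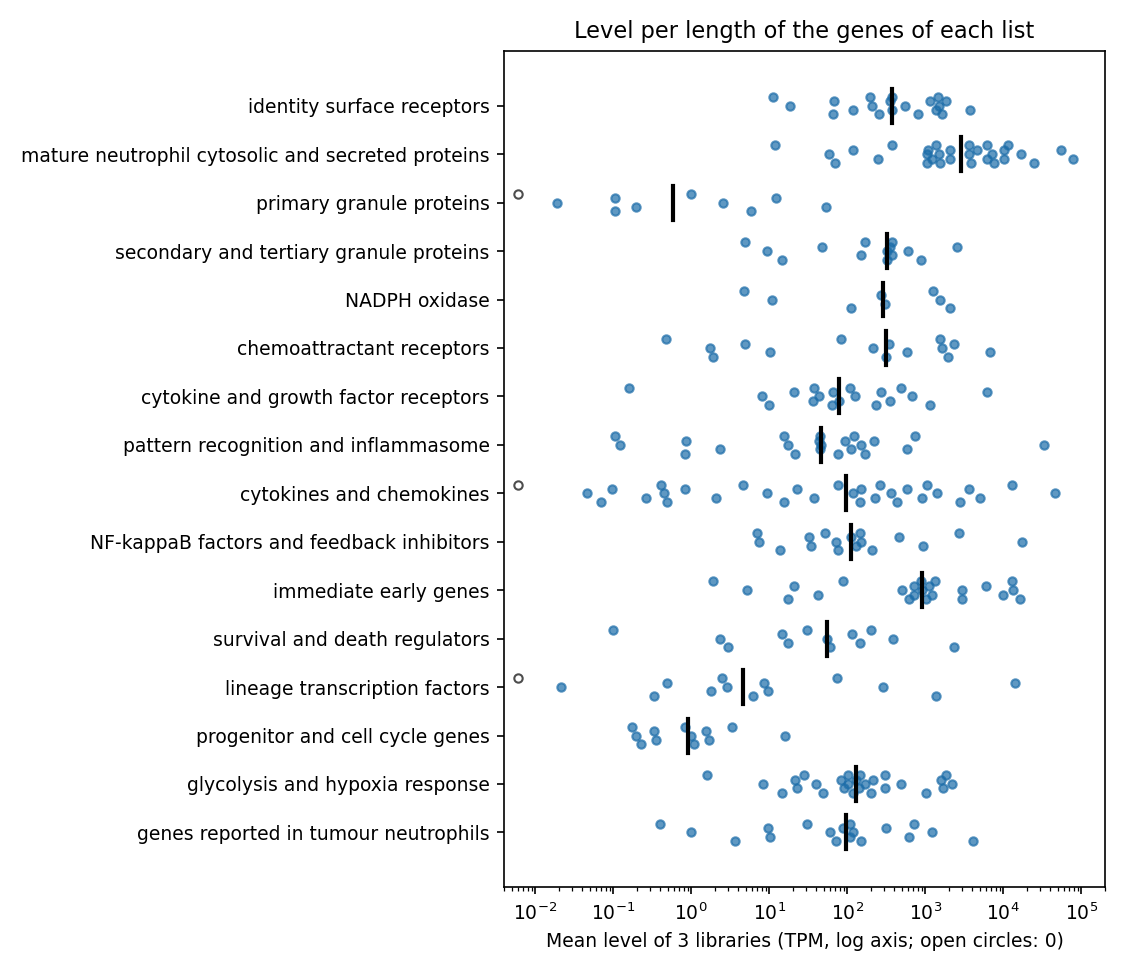
Mean level per length (TPM, log axis) of each gene of the 16 neutrophil lists, one point a gene, with the list's median as a black bar and genes with 0 counts as open circles. Medians run from 0.589 TPM for primary granule proteins and 0.917 TPM for progenitor and cell cycle genes to 2862 TPM for mature neutrophil proteins.

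Across the 16 neutrophil lists, 178 of 290 distinct genes were high and 6 did not exceed the floor. Their median was 119.5 TPM, against 2.87 TPM for all protein-coding genes above the floor. The lists were drawn up with earlier results of these data known, so these values describe the members chosen. Mature neutrophil cytosolic and secreted proteins had the highest median, 2862 TPM, and 27 of 30 were high. After S100a9 and S100a8, G0s2 was next per length at 25077 ± 6909.9 TPM. G0s2 reached 8165, 8464 and 13375 CPM, and library 3 was well above the others. Wfdc17, a small secreted protein of the whey acidic protein family, reached 5019, 3334 and 3890.3 CPM. Slpi, a protease inhibitor that shields tissue from neutrophil elastase, was more even, at 2621, 2273 and 2662 CPM. Library 1 was highest in 21 of the 30 genes of this list, against 49.0% of all high genes, a share that depends on the scaling of the libraries (given below). Retnlg, a resistin-like secreted protein, reached 1628, 647 and 853 CPM. Anxa1, the pro-resolving annexin, reached 1820.1, 1084 and 1262 CPM. The lowest were stefins, cysteine protease inhibitors: Stfa2 at 117 TPM, BC100530 at 57.9 TPM and Stfa3 at 11.7 TPM. These are copies of one another, with 33.3% of the 31-base words of Stfa2 and 51.8% of those of BC100530 shared, and Stfa2l1, at 1221 TPM, shares 41.6%, so the split between them is uncertain. Padi4, which citrullinates histones in extracellular traps, reached 209, 115 and 133 CPM.

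Of 20 identity surface receptors, 16 were high and 4 intermediate. The highest per length were Fcgr3, an activating Fc receptor, at 3723 ± 105 TPM, and Clec4e, the Mincle lectin receptor, at 1827 ± 206 TPM. Cxcr2 followed at 1658 ± 93.5 TPM, and Clec4d, the partner lectin of Clec4e, at 1513 ± 136 TPM. The 4 intermediate genes were Ly6g, Cd177, Mmp25 and Ceacam1. Cd177, a surface partner of proteinase 3, reached 157, 52.0 and 47.6 CPM. Mmp25, a membrane-bound metalloproteinase, reached 59.2, 32.9 and 41.4 CPM. Ceacam1, an adhesion molecule, reached 29.1, 26.7 and 32.0 CPM. As with Ly6g, library 1 was the highest for Cd177 and Mmp25, and it was between the others for Ceacam1.

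Chemoattractant receptors were led by Ccrl2, at 6486, 8779 and 8984 CPM, followed per length by the C5a receptor C5ar1 (2333 ± 99.6 TPM), Ccr1 (1929 ± 161 TPM), Cxcr2 and the formyl peptide receptor Fpr1 (1541 ± 143 TPM). Cxcr4, which retains cells in the marrow and is known on aged neutrophils, reached 249, 353 and 255 CPM. Cxcr1, the other CXC receptor for these ligands, reached 61.6, 55.9 and 53.6 CPM (83.8 ± 6.25 TPM), and Ccr2 and Ccr7, receptors of monocytes and lymphocytes, averaged 1.89 TPM and 1.75 TPM. Of 15 genes, 9 were high, 2 intermediate and 4 low, and the C3a receptor C3ar1 was among the low ones (4.95 ± 1.11 TPM).

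The receptors for interleukin-1 were very unequal. The decoy receptor Il1r2 reached 4844, 5957 and 5301 CPM, or 6169.9 ± 772 TPM, while Il1r1, the receptor that transmits the signal, had 5, 22 and 29 counts, or 0.158 ± 0.11 TPM. The shared accessory chain Il1rap was present at 202, 188 and 172 CPM. Receptors for TNF (Tnfrsf1a, 680.4 ± 70.6 TPM), GM-CSF (Csf2ra, 486 ± 39.9 TPM), interleukin-4 (Il4ra, 274 ± 56.8 TPM) and interferon-gamma (Ifngr1, 236 ± 24.4 TPM) were high, and 15 of 19 genes in the list were, or 9 when 100 TPM was required in place of 100 CPM. Of the others, Il1r1 was very low and Csf2rb2, Tgfbr1 and Tgfbr2 were intermediate. The TGF-beta receptors averaged 24.1 ± 4.95 CPM (Tgfbr1) and 37.6 ± 3.48 CPM (Tgfbr2).

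Pattern recognition was dominated by Cd14, at 25385, 25326 and 28762 CPM and at rank 4 per length (33475 ± 1994 TPM). Its signalling partner Tlr4 reached 119.9, 103 and 127 CPM, which per length was 45.9 ± 3.96 TPM. The adaptor Myd88 was even across libraries (735 ± 22.1 TPM), Tlr2 averaged 579 ± 105 TPM, and the inflammasome sensor Nlrp3, which leads to cleavage of pro-interleukin-1 beta, 218 ± 15.3 TPM. Inflammasome components were unequal per length. The effectors Casp1 and Gsdmd averaged 167 ± 33.2 TPM and 151 ± 21.3 TPM, but the adaptor Pycard only 21.7 ± 4.03 TPM. Receptors for nucleic acids in endosomes were low or very low, with Tlr3 at 3, 4 and 23 counts, Tlr9 at 7, 1 and 16 counts, and Tlr7 and Tlr8 at 0.869 TPM and 0.837 TPM. Tlr13, which detects bacterial ribosomal RNA, was the exception among endosomal receptors at 93.3 ± 7.89 TPM. Of 22 protein-coding genes in this list, 13 were high, and 8 were at 100 TPM or more.

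Cytokine and chemokine genes spanned the whole range, from Il1b to Il4 with 0 counts in every library. Of 32 genes, 15 were high, 6 intermediate, 2 low, 6 very low and 3 not above the floor. After Il1b and Cxcl2, at 10164, 11942 and 14487 CPM, the highest per length were the chemokines Ccl4 (5097 ± 979 TPM) and Ccl3 (3650.3 ± 1125 TPM) and Osm, an interleukin-6 family cytokine (2773 ± 382 TPM). Further inflammatory cytokines were high in every library but varied. The antagonist Il1rn, which blocks the interleukin-1 receptor, reached 2649, 3666 and 4259 CPM. Il1a reached 527, 849 and 1086 CPM. Tnf reached 284, 522 and 501 CPM. Il23a, a subunit of interleukin-23, reached 236, 424 and 474 CPM. Library 1 was the lowest for each of these 4 genes. Csf1, the macrophage growth factor, averaged 432 ± 64.0 TPM. Other well-known cytokines were at or near the floor. Il6 had 10, 14 and 12 counts and Il12b 5, 5 and 1 counts. Ifng had 7, 11 and 15 counts, Il17a 0, 1 and 2 counts and Ifnb1 1, 1 and 1 counts. The anti-inflammatory Il10 was low, at 2.09 ± 0.551 TPM.

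The highest NF-kappaB genes per length were members of the IkappaB family and not the DNA-binding factors. Nfkbia retains the factors in the cytoplasm, whereas Nfkbid and Nfkbiz are nuclear members, and Nfkbiz is known chiefly as a co-activator of secondary response genes. Nfkbia reached 9669.6, 13099.9 and 15028 CPM, or 17138 ± 3650.1 TPM. Nfkbid reached 2698, 3136 and 2749 CPM, or 2675 ± 288 TPM. Nfkbiz reached 2044, 2128 and 2276 CPM, or 938 ± 47.1 TPM. Nfkbia was lowest in library 1, and the other two were more even. The DNA-binding subunits averaged, per length, 147 ± 17.1 TPM for Rela, 51.7 ± 4.73 TPM for Relb, 34.5 ± 3.22 TPM for Nfkb2, 13.6 ± 1.65 TPM for Nfkb1 and 7.43 ± 0.631 TPM for Rel. Tnfaip3 (A20), an enzyme that restrains the pathway, averaged 206 ± 18.4 TPM. Of 17 genes, 12 were high and 5 intermediate.

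Immediate early genes were high in 18 of 23 cases, with a median of 914 TPM. Dusp1 reached 23559, 27001 and 23917 CPM. Junb reached 13742, 14926 and 12755 CPM. Zfp36 reached 9326, 9616 and 9849 CPM. These 3 genes were nearly even over the libraries, whereas Fos, at 13090.4, 10679.5 and 8585 CPM, was highest in library 1. Egr1 averaged 1232 ± 123 TPM, Atf3 1129 ± 197 TPM and the Kruppel-like factor Klf6 890.3 ± 37.7 TPM. Family members differed widely: Fosb averaged 20.8 ± 2.63 TPM against 10050.0 ± 2127 TPM for Fos, Egr3 1.93 ± 0.569 TPM against 1232 ± 123 TPM for Egr1, and Nr4a2 5.12 ± 1.31 TPM against 914 ± 139 TPM for Nr4a1. The cells came from enzyme-digested tissue, and no undigested sample is part of these libraries.

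Among 13 survival and death regulators, 4 were high. Mcl1 reached 3699.8, 3870.4 and 3381 CPM, or 2342 ± 211 TPM. Bcl2l1 (Bcl-xL) reached 882, 800.0 and 709.9 CPM, or 381 ± 43.7 TPM. Bcl2, the founding member of the family, was very low with 13, 19 and 19 counts. The neutrophil survival genes of the Bcl2a1 cluster were listed at only 55.5 TPM (Bcl2a1b), 30.7 TPM (Bcl2a1a) and 14.6 TPM (Bcl2a1d), but 88.8%, 79.6% and 89.1% of their 31-base words are shared, so these levels are not reliable. The death receptor Fas averaged 202 ± 17.0 TPM and Casp8, the protease it activates, 146 ± 4.30 TPM.

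Of 14 lineage transcription factors, 4 were high, 2 intermediate, 5 low, 2 very low and 1 not above the floor. Among those named here, factors known from mature myeloid cells were higher than those of progenitors or earlier stages. Cebpb, active in stress and terminal granulopoiesis, reached 9868, 10145 and 8786 CPM. Spi1 (PU.1), needed through myeloid life, reached 1811, 1575 and 1758 CPM. Cebpd averaged 288 ± 21 TPM and Hif1a 73.7 ± 8.24 TPM. Cebpe and Cebpa, factors of earlier granulocyte stages, averaged 9.55 ± 0.48 TPM and 1.80 ± 0.407 TPM. Gfi1 had 19, 25 and 17 counts, the progenitor factor Myb 1, 9 and 1 counts and the erythroid and eosinophil factor Gata1 0 counts. Cebpb shares 19.6% of its 31-base words with other genes.

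Primary granule genes were mostly very low, and genes of the later granules mostly high. Of 10 primary granule genes, 1 was high, 1 intermediate, 2 low, 4 very low and 2 not above the floor. Among them, Ctsg had 0 counts in every library, Bpi 0, 0 and 2 counts, Mpo 6, 14 and 1 counts and Elane 4, 3 and 4 counts, although their proteins are abundant in mature neutrophils. Prtn3 averaged 5.83 ± 1.57 TPM. Ctsc, the protease that activates these enzymes, was the only high gene of the list, at 141 ± 9.65 CPM, and per length it was at 53.3 ± 3.85 TPM, so that 0 of the 10 reached 100 TPM. Among 14 secondary and tertiary granule genes, 10 were high. Hp (haptoglobin, which binds haemoglobin) reached 2179.6, 1676 and 1784 CPM. Mmp9 (gelatinase, a matrix protease) reached 1589, 1215 and 1476 CPM. Lcn2 (lipocalin-2, which withholds iron from bacteria) reached 936, 516 and 686 CPM. All were highest in library 1, as was Ltf (lactoferrin) at 355, 175 and 185 CPM. The spread was wider for Ngp, neutrophilic granule protein, at 490.0, 69.2 and 81.0 CPM, a 7.09-fold range. The cathelicidin Camp was intermediate, at 36.1, 5.84 and 7.42 CPM, with the same high library. Itgb2l, Olfm4 and Chil3 were lowest per length, at 4.83 TPM, 9.23 TPM and 14.6 TPM.

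The NADPH oxidase, which makes superoxide in the phagosome, was uneven at the message level. Its cytosolic subunits Ncf1 and Ncf4 averaged 273 ± 23.4 TPM and 1264 ± 34.0 TPM, the GTPase Rac2 1536 ± 109.8 TPM, and the small membrane subunit Cyba 2079 ± 16.9 TPM. The catalytic membrane subunit Cybb (gp91phox, ENSMUSG00000015340, chrX:9435252-9487771, minus strand) reached only 43.4, 21.7 and 22.6 CPM, and Hvcn1, the proton channel that balances its charge, 4.70 ± 1.16 TPM. Per library Cybb stood at 16.2, 8.41 and 8.37 TPM and Ncf1 at 257, 261 and 299.6 TPM, with no overlap. Cybb shares 0% of its 31-base words with other genes.

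Genes of glycolysis and the hypoxia response were high in 20 of 27 cases. The enzymes Aldoa, Pkm and Ldha were even over the libraries. Aldoa reached 2972, 3057 and 2871 CPM. Pkm reached 4044, 4003 and 3518 CPM. Ldha, which makes lactate, reached 2338, 2491 and 2302 CPM. The hypoxia-inducible genes Hilpda, Egln3 and Bnip3 averaged 1857 ± 289.5 TPM, 307 ± 23.9 TPM and 302 ± 27.2 TPM, the glucose carrier Slc2a1 487 ± 59.2 TPM and Vegfa 119 ± 14.3 TPM, in animals breathing ambient air. Adm and Car9, also known hypoxia targets, averaged 8.35 ± 3.62 TPM and 1.60 ± 0.837 TPM. Pkm and Bnip3 share 34.7% and 57.0% of their 31-base words with other annotated genes, so their levels are uncertain. Gapdh, Pgk1 and Pgam1 averaged 101 ± 8.79 TPM, 21.1 ± 1.27 TPM and 23.0 ± 1.15 TPM, but share 28.1%, 54.7% and 37.1% of their 31-base words with other annotated genes, and the counting of such reads is not given in the sources used here.

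Genes reported in tumour neutrophils were high in 12 of 18 cases, or 9 when 100 TPM was required, against 5.15% of all protein-coding genes. The members were chosen with earlier results of these data known, so the count describes the members chosen. Ptgs2, which makes prostaglandins, averaged 613 ± 82.8 TPM, Entpd1 (CD39), which degrades extracellular ATP, 315 ± 33.8 TPM, the mitochondrial arginase Arg2 1219.5 ± 38.3 TPM and osteopontin (Spp1) 708 ± 159 TPM. Arg1, the cytosolic arginase, averaged 30.1 ± 13.6 TPM, far under Arg2. Nos2, the inducible nitric oxide synthase, reached 223, 131 and 86.0 CPM. Siglecf, a sialic acid receptor known from eosinophils and from neutrophils of some tumours, reached 98.2, 189 and 120.1 CPM, while the eosinophil genes Epx and Prg2 had 0 counts and Ccr3 averaged 3.60 TPM. Cd274 (PD-L1) was even, at 176, 186 and 181 CPM. Slc27a2, a fatty acid carrier, averaged 0.393 ± 0.0474 TPM.

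Progenitor and cell cycle genes were low or very low apart from Pcna, with 0 of 12 high and a median of 0.917 TPM. Pcna, the sliding clamp of DNA replication, reached 12.2, 19.6 and 20.8 CPM. Mki67 averaged 0.358 ± 0.0545 TPM, Top2a 0.225 ± 0.0889 TPM, Kit 0.338 ± 0.0812 TPM and Cd34 0.176 ± 0.067 TPM. Library 3 was highest in 9 of the 12, against 30.5% of all genes above the floor. It was also highest in 10 of 10 epithelial, 8 of 9 stromal and 7 of 8 T and NK cell markers above the floor, and the part of such cells in the progenitor and cell cycle levels was not tested.

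Markers of other cells were mostly low, with a median of 0.491 TPM over their lists against 119.5 TPM over the neutrophil lists. Both sets of lists were drawn up with earlier results of these data known, which limits this contrast. Of 104 distinct genes in 10 lists, 7 were high, and these were Apoe, Cd68, Csf1r, Ly6c2, Cd74, H2-Ab1 and Hbb-bs. The summed monocyte and macrophage markers ranged from 1554 to 1658 CPM over libraries, with 4 of 16 high. Cd68 averaged 556 ± 15.8 CPM, Apoe 558 ± 56.4 CPM, Csf1r 182 ± 29.3 CPM and the complement gene C1qb 59.8 ± 7.02 CPM, while Mrc1 had 8, 8 and 23 counts, Mertk 20, 4 and 12 counts and Cd163 0, 1 and 0 counts. Genes for MHC class II and for dendritic cells summed to 453 to 546 CPM, with 2 of 11 high, Cd74 at 266 ± 21.8 CPM and H2-Ab1 at 117 ± 11.4 CPM, and Flt3 and Zbtb46 at 6, 10 and 12 counts and 21, 1 and 2 counts. In sorted bulk RNA, fewer cells of a type and less RNA per cell cannot be told apart, and the part of other cells in the levels above was not tested.

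The remaining lists summed to little, except for red cells and epithelium. Eosinophil, basophil and mast cell markers summed to 4.93 to 7.45 CPM, with 0 counts for Epx, Prg2, Ear1 and Tpsb2. T and NK cell markers summed to 6.06 to 17.6 CPM, B cell markers to 1.27 to 2.48 CPM with Pax5 at 0, and endothelial markers to 9.12 to 14.3 CPM. Stromal markers summed to 21.6 to 60.4 CPM and smooth muscle markers to 16.6 to 22.3 CPM with Myocd at 0. Epithelial and uterine markers summed to 77.6, 128 and 177 CPM in libraries 1, 2 and 3, led by the keratin Krt19 at 27.7, 49.4 and 59.6 CPM, while Pgr, the gene that carries the Cre, had 5, 8 and 18 counts. Red cell and platelet markers summed to 57.2, 87.0 and 736 CPM, led by Hbb-bs at 27.1, 42.7 and 399.7 CPM.

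**Figure D3:**
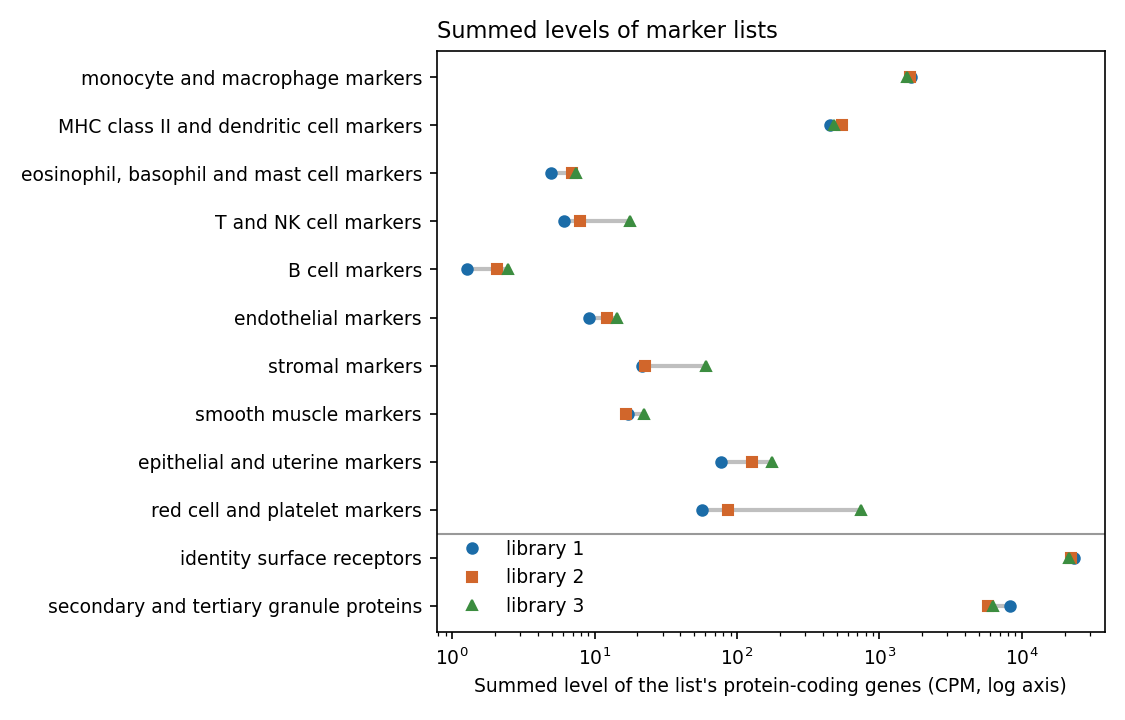
Summed level (CPM, log axis) of the protein-coding genes of 10 marker lists of other cells and, under the line, of 2 neutrophil lists, in each of the 3 normoxia libraries. Library 3 is highest for red cell, stromal, epithelial and T and NK cell markers, and library 1 for granule proteins.

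Most high genes differed little between the libraries. Over all 11526 genes above the floor in each library, the highest library exceeded the lowest more than 2-fold in 2127 (18.5%). In CPM, library 1 was often highest for secondary and tertiary granule genes and lowest for cytokine genes. Over the 1110 high genes the median SD of log2 CPM was 0.14, and the highest library exceeded the lowest more than 2-fold in 14 (1.26%). The 10 most variable of them were Hbb-bs, Ngp, Prok2, Mmp8, Retnlg, Cxcl1, Nos2, Ifitm6, Dusp2 and G6pdx. Ngp, Mmp8, Retnlg, Prok2, Ifitm6, Nos2 and G6pdx were highest in library 1. Mmp8 reached 582, 219 and 263 CPM and Prok2, a chemokine-like protein of neutrophils, 215, 71.4 and 114 CPM. Cxcl1, at 61.8, 147 and 168 CPM, and Dusp2, at 267, 552 and 575 CPM, were lowest in library 1. Pairs of libraries correlated at Pearson's r of 0.98 to 0.99 over these 1110 genes, which share each library's depth and are not independent.

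By list, library 1 was highest in 11 of 14 secondary and tertiary granule genes, 13 of 20 identity receptors and 21 of 30 mature proteins. It was highest in 49.0% of all high genes and in 25.1% of all genes above the floor, so for the mature proteins and identity receptors the counts are not far from that background. The median ratio of library 1 to the mean of libraries 2 and 3 was 1.497 for the granule genes and 1.04 for all high genes. Library 1 was lowest in 21 of the 28 cytokine and chemokine genes above the floor in each library, with a median ratio of 0.716, against 32.6% of high genes and 49.7% of genes above the floor. With TMM scaling of the libraries the counts were 11 of 14 granule genes and 17 of 28 cytokines, while mature proteins gave 23 of 30. Library 1 was then highest in 69.2% and lowest in 15.8% of high genes. Over all genes above the floor it was highest in 37.3% and lowest in 38.1%. With that scaling the counts of granule genes and mature proteins are not far from the share over high genes. Library 3 was highest in 10 of 10 epithelial markers, 8 of 9 stromal markers, 7 of 8 T and NK cell markers and 6 of 8 red cell and platelet markers above the floor, against 30.5% of all genes above the floor. The part of these other-cell markers in the differences between libraries was not tested.

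**Figure D4:**
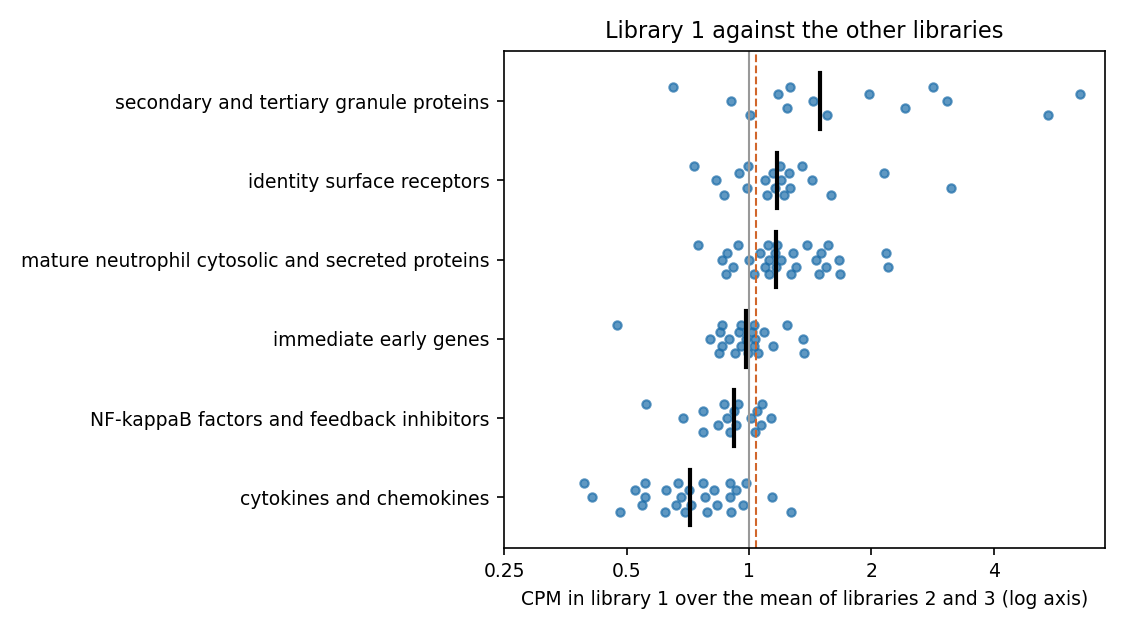
CPM in library 1 over the mean of libraries 2 and 3 (log axis) for the genes of 6 neutrophil lists above the floor in each library, one point a gene, with the median as a black bar, equality as a grey line and the median of all high genes (1.04) as a dashed line. Granule genes lie mostly to the right, with a median of 1.497, and cytokines and chemokines mostly to the left, with a median of 0.716.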

How the data were processed

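Sorted cells gave RNA through a micro-scale column kit, and Ovation/NexteraXT reagents made the libraries (per the labels' protocols). The authors deposited raw gene counts, one table a library, as whole numbers without normalization. STAR 2.4.2a, DESeq2 1.16.1 and GRCm38 are named in the submitters' processing notes. How reads were assigned to genes (program, strand setting, annotation) is not given in the sources used here. The 3 hyperoxia libraries were not used here.

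Of 43432 gene IDs, 42548 matched GENCODE M21 and 884 did not. CPM was computed on all counts, and TPM over protein-coding genes with exon-union lengths. Lists of 396 distinct genes (16 neutrophil lists, 10 of other cells) were described by counts and medians. The members, lists and rules were chosen with earlier results of these data known. Genes named were chosen from the 40 highest by CPM and by TPM (not all are named), the 6 markers, in each list the 4 highest and 3 lowest and those not above the floor, and the 10 most variable high genes; other list members were named for their role after values were seen. The share of 31-base words that a gene shares with others was taken from the GENCODE M21 transcripts. Promoters are from RefSeq (GRCm38.p6), and matched 33 of the 40 highest genes. Scaling alternatives used edgeR 4.0.16 (TMM) and DESeq2 1.42.0 in R 4.3.3; the rest was computed in Python 3.11.15 with pandas 2.3.3. The scripts were tested on simulated data. PCR copies are not independent molecules, so the floor covers counting error only. A few items are not reported here.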

Additional observations from a re-analysis of the deposited data

Results flagged for a closer look

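Signal outside the protein-coding genes was marked for 7 genes with a mean of 200 CPM or more that the annotation does not class as protein-coding, with no control libraries to set them against. Malat1, a nuclear long non-coding RNA, averaged 2163 CPM, and the mitochondrial ribosomal RNA mt-Rnr2 1842 CPM. Gm15564, annotated as antisense, averaged 556.9 CPM. Clec7a (Dectin-1, the receptor for fungal beta-glucan) averaged 394.5 CPM and is classed as a polymorphic pseudogene in the annotation, so it was not counted among the protein-coding genes. 4833407H14Rik, a long intergenic RNA, averaged 343.3 CPM. Gm13822, annotated as antisense to the interferon-stimulated gene Oasl1, averaged 233.5 CPM, and without a stated strand setting its reads cannot be told from those of Oasl1, which averaged 1975 CPM. Gm23935, a predicted microRNA, averaged 219.3 CPM.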

How the results depend on the processing

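Expressing shares in TPM in place of counts raised the share of the 10, 50 and 100 highest genes to 32.0%, 56.7% and 66.0%, by construction, since short genes weigh more. The number of protein-coding genes detected ran from 8404 (at least 1 CPM in each library) to 15361 (any count) around 11526, with 11760 to 11964 when a library was left out. Of the 40 highest genes by CPM, 39 or 40 remained under TMM, DESeq2 size factors and each library left out, and of the 40 by TPM, 38 to 40 with a library left out and 32 when the median length of the coding transcripts, an alternative chosen after seeing the data, replaced exon length. With that length Fth1 led at 55390 TPM, ahead of S100a9 at 44901 TPM, so the order of the leading genes per length depends on the gene model. The high genes of the neutrophil lists numbered 157 in TPM and 176 to 180 otherwise. Those of the other-cell lists numbered 6 to 9, and Hbb-bs rested on library 3. The median SD of log2 CPM was 0.17 with DESeq2 size factors, and 0.0806 to 0.136 with a library left out, lowest without library 1. The values with a library left out rest on fewer libraries than the main value and cannot be set against it. Depth limits statements about genes near 0: at the floor of 3 counts a message is not shown to be absent. No paired analysis was possible because the series' labels give no replicate numbers and 1 group was used.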

Other observations

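Among interferon-stimulated genes, a list of antiviral and immune genes was written after the levels were seen, so its counts describe the members chosen and are no support for a level of the group. Of the 25 found, 22 were at 100 CPM or more, against 5.15% of all protein-coding genes, with a median of 663 TPM. Ifitm3, which blocks virus entry, reached 3431, 2959.7 and 3194 CPM, Isg15, a ubiquitin-like modifier, 2033, 1971 and 2295 CPM, Rsad2 (viperin) 3848, 2909 and 3900.5 CPM, the transcription factor Irf7 3041, 2628 and 2752 CPM and Ifit1, which binds foreign RNA, 3094, 2285 and 2519 CPM. The receptor chains Ifnar1 and Ifnar2 averaged 101 ± 9.27 CPM and 101 ± 5.32 CPM, while Ifnb1 had 1, 1 and 1 counts. The low gene of the list was Mx1, at 1.65 ± 0.372 CPM. Library 1 was highest in 20 of the 25, against 49.0% of all genes of 100 CPM or more. With TMM scaling that background was 69.2%, and this list was not counted under that scaling, so the count is not read as a trait of these genes.

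For genes of translation, a list also written after the levels were seen had a median of 34.6 CPM, against 5.88 CPM for all genes above the floor. In it, 3 of 22 were at 100 CPM or more, a count that does not set the list below other genes: the initiation factors Eif1 and Eif5a, at 461 ± 36.2 CPM and 364 ± 36.4 CPM, and Rps9, at 223 ± 10.6 CPM. Eef1a1, the elongation factor, averaged 60.4 ± 6.52 CPM, and 51.5% of its 31-base words are shared with other genes. Of 84 ribosomal protein genes, 22 were at 10 CPM or more, against 4701 of all 21551 protein-coding genes. That count is not read as a trait of these genes.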
